A study of Mus musculus with 2 samples.

Results

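Erythroid and heme synthesis genes encode the globins, the factors and receptors that drive red cell formation, the proteins of the red cell membrane, and the enzymes and transporters that make heme. They were taken as a list of 30 named genes, each matched to the array by the gene symbol of the probe annotation. Of these, 26 were measured, among 19084 genes measured in all, and 24 of the 26 were measured by 1 probe. Hba-a1, Hba-a2, Hbb-b2 and Ahsp were not analysed here. The measurements compare Z(+) with Z(-) cells of the spleen, from naïve NOD-SCID mice 6 to 8 weeks of age, which carry the scid mutation of Prkdc in every cell of both fractions and lack mature T and B lymphocytes. Cells were sorted right after isolation from the spleen, with no culture and no treatment. Z refers to Zfra, a small zinc finger-like protein, and Z(+) cells are those that bind it, which is read from the other sorts of the study since the labels do not say how these cells were stained. The design text gives the number 8 without saying whether it counts spleens, and each fraction gave 1 sample of RNA, hybridised to 2 technical arrays. Neither the mice nor the sort were replicated, so no test was possible and the values describe this pair of samples.

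Red blood cells arise from progenitors in the bone marrow and, in the mouse, also in the red pulp of the spleen. The transcription factors GATA1 and KLF1 switch on the genes of globin, heme synthesis and the red cell membrane, and erythropoietin, acting through its receptor, keeps the precursors alive. Heme synthesis begins and ends in the mitochondrion. ALAS2 is the erythroid form of its first enzyme and ferrochelatase inserts the iron at its end, while the steps between run partly in the cytosol. Most enzymes of the pathway work in every cell that respires, whereas ALAS2, GATA1, KLF1, spectrin, band 3 and the Rh proteins mark the erythroid line more closely. The spleen also clears old red cells, and its red pulp macrophages take up their hemoglobin.

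The difference between the fractions was small for nearly all members. Of the 26 genes, 25 were within 2-fold, Car2 was at least 2-fold lower in Z(+), and 0 were at least 2-fold higher. Over all genes, 6.27% were at least 2-fold lower and 2.44% at least 2-fold higher, and the share of members past 2-fold, 3.85% in all, is not above that background. The median log2 difference, Z(+) minus Z(-), was -0.11 over the members and 0.03 over all genes. A log2 difference of 1 is 2-fold. Within 1.5-fold lay 19 of the 26 members (73.1%), against 78.6% of all genes. The counts within 2-fold and within 1.5-fold include Rhag only because its value in Z(+), 0.48, was set to 1. Members with a positive difference numbered 11 (42.3%) and those with a negative one 15, while 54.1% of all genes had a positive difference. RNA of a sorted fraction does not tell fewer cells of a type from less RNA per cell.

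**Figure D1:**
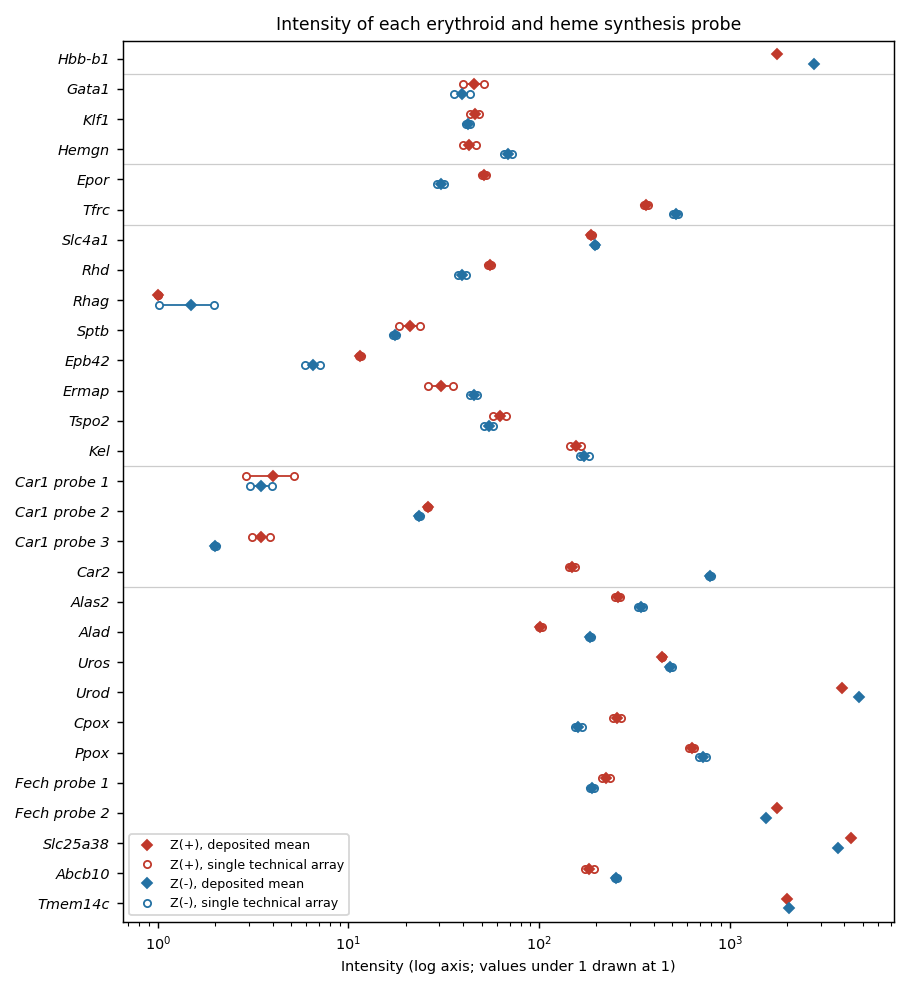
Intensity of each probe of the 26 measured members on a log axis, for Z(+) (red) and Z(-) (blue). Diamonds are the deposited means and open circles the single technical arrays, drawn where the mean could be split. Car2, at 149 in Z(+) and 788 in Z(-), is the pair that stands farthest apart, and the pairs of most other genes lie close together.

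The hybridization spread can be read from the technical arrays. Below an intensity of 1000 the deposited mean could be split into its 2 arrays for 99.1% of the probes in Z(+) and 99.8% in Z(-). Between 100 and 400, the arrays differed by a median of 1.08-fold in Z(+), against 1.04-fold in Z(-). From 100 on only array pairs within 1.5-fold were accepted, so a wider gap could not be seen there. Between 20 and 100, where many members lie, the medians were 1.16-fold in Z(+), against 1.06-fold in Z(-), and 5% of probes differed by over 2.21-fold in Z(+). Of 29 member probes, 24 could be split in both samples. For 9 of them both arrays of Z(+) lay above both of Z(-), for 11 both lay below, and for 4 they overlapped. Among all named probes that could be split, 38.7% lay above and 30.3% below, so arrays that do not overlap are common on this array and do not by themselves mark a member. The other technical spread is that between probes. For 2104 genes with exactly 2 probes, the SD of one probe's log2 difference minus the other's was 0.84.

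Among the members, 21 had a promoter in the RefSeq table of GRCm38.p6, which is the genome of C57BL/6J and not of NOD. Hbb-b1, Slc4a1, Car1, Fech and Car2, the one member past 2-fold, had none there. In the 250 bases before the start, letters that GATA factors bind (GATA after A or T and before A or G, on either strand) were found for 11 of the 21 genes (52.4%), against 29.7% of the 27025 genes in that table. A CACCC box as KLF1 binds it (CCACACCC, CCACGCCC, CCCCACCC or CCCCGCCC on either strand) was found for 7 of the 21 (33.3%), against 30.2% of all. Both were found for 2 members, Alas2 and Epor (9.52%), against 4.99% of all. These matches are a description of letters and not of bound sites. The promoters of Alas2, Epor and Klf1, genes that mark the erythroid line, are shown as examples that carry these letters. Their transcripts differed by less than 2-fold, as was counted for each of the 21 members with a promoter. Capitals mark both kinds of match, which stand here as the reverse complement where the match is on the other strand, and the last base lies next to the transcription start. Alas2 is at chrX:150547167-150547416 on the plus strand, Epor at chr9:21963577-21963826 on the minus strand and Klf1 at chr8:84901732-84901981 on the plus strand.
Alas2: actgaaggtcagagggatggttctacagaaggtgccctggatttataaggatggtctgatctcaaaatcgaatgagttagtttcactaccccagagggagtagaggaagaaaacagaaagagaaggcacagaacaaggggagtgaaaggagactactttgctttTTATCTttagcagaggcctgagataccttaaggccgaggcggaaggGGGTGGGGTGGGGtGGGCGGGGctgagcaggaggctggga
Epor: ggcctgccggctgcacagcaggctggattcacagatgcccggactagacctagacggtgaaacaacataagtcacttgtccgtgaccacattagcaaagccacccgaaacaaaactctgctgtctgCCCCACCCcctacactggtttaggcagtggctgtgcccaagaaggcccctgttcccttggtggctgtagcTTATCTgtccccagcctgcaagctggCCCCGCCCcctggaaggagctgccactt
Klf1: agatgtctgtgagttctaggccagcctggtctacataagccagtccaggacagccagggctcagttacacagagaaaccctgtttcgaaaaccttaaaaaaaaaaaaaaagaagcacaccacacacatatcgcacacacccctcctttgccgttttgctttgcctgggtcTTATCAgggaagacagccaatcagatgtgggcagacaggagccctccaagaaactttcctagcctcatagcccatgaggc
In Alas2 a GATA match begins 86 bases before the start and CACCC matches begin 40, 35 and 26 bases before it, of which the first pair overlap. In Epor a GATA match begins 54 bases before the start, between CACCC matches at 124 and 28. In Klf1 a GATA match begins 80 bases before the start. The 11 members with a GATA match had a median log2 difference of -0.14, with 5 higher and 6 lower in Z(+). The 10 members with no match had a median of -0.12, with 4 higher and 6 lower. Car2, with no promoter here, is in neither set.

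The 3 erythroid regulators among the members did not differ by 2-fold. Gata1, the master transcription factor of the line, which eosinophils, mast cells and megakaryocytes also use, measured 45.7 in Z(+) against 39.5 in Z(-). Its technical arrays overlapped, at 39.7 and 51.7 in Z(+), against 35.6 and 43.4 in Z(-). Klf1, which activates the adult beta-globin gene, had 46.1 in Z(+) and 42.5 in Z(-). Its arrays nearly met, at 43.6 and 48.6 in Z(+) against 43.6 and 41.4 in Z(-). Hemgn, a nuclear protein of blood precursors, was 1.60-fold lower in Z(+), with 43.1 against 69.0 in Z(-). The arrays of Hemgn did not overlap, at 39.7 and 46.5 in Z(+), against 72.3 and 65.7 in Z(-). All 3 genes lay below the median intensity of all genes, which is 121. The table holds no detection calls, so a dim value does not show whether a transcript is absent.

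Epor, the erythropoietin receptor, and Tfrc, the transferrin receptor that brings iron into dividing cells and erythroblasts, went in opposite directions. Epor measured 51.5 in Z(+) against 30.5 in Z(-), which is 1.69-fold higher in Z(+). The arrays of Epor gave 50.3 and 52.7 in Z(+), against 31.7 and 29.3 in Z(-), with no overlap. Tfrc had 366 in Z(+) and 523 in Z(-), 1.43-fold lower in Z(+). The arrays of Tfrc gave 357 and 374 in Z(+), against 539 and 507 in Z(-), also with no overlap. Beside the lower Tfrc, 8 of 14 measured cell cycle genes (57.1%) had at least 2-fold less in Z(+), against 6.27% of all genes. Of the 14, 0 had at least 2-fold more, and their summed intensity was 3965 in Z(+) and 7754 in Z(-). Their part in the difference of Tfrc was not tested.

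Globin was represented by Hbb-b1, an adult beta-globin gene. Its intensity was 1776 in Z(+) and 2776 in Z(-), 1.56-fold lower in Z(+). Values this bright could not be split into arrays, and the adult beta-globin genes of the mouse are nearly identical in sequence, so the probe may read several of them. Among 5 other measured globin genes, 4 were within 2-fold, with a median log2 difference of 0.24. Hbb-bh1, an embryonic beta-like globin, had 165 in Z(+) and 163 in Z(-), and Hba-x, the embryonic zeta globin, had 244 in Z(+) and 192 in Z(-). Hbq1a, a theta globin, and Hbb-bh2, another beta-like globin gene, were very dim, Hbq1a with 3.0 in Z(+) and 4.0 in Z(-) and Hbb-bh2 with 6.52 in Z(+) and 5.51 in Z(-). Hbq1b, also a theta globin of unsettled function, was 2.77-fold higher in Z(+) as the average of probes that disagree. One probe of Hbq1b had 153 in Z(+) and 23.5 in Z(-), and the other 24.0 in Z(+) and 20.5 in Z(-).

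With values under 1 set to 1, all 8 genes of the red cell membrane and its skeleton were within 2-fold. Their median log2 difference was 0.06, and it ranged from -0.11 to 0.13 over the alternative settings. Slc4a1, which encodes band 3, the anion exchanger that anchors the skeleton, measured 187 in Z(+) against 197 in Z(-). Its arrays were 191 and 184 in Z(+), against 196 and 197 in Z(-), a difference of 1.05-fold that turned to 0.01 on the log2 scale with quantile normalization. Kel, a blood group protein, had 156 in Z(+) and 173 in Z(-), with arrays that overlapped. These are the 2 members of this group at or above the median intensity of all genes.

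The dim members of the group lay on both sides of no difference. Epb42, which encodes protein 4.2 beneath the membrane, had 11.5 in Z(+) and 6.51 in Z(-), the largest positive difference of any member at 0.82 on the log2 scale. It became 0.12 with a pseudocount of 50 and 0 with a floor of 20. Rhd, of the Rh blood group, had 55.0 in Z(+) and 39.5 in Z(-), and Sptb, the beta chain of erythroid spectrin, had 21.1 in Z(+) and 17.5 in Z(-). Tspo2, an erythroid protein of the translocator family, had 62.2 in Z(+) and 54.5 in Z(-), with arrays that overlapped. Ermap, an erythroid membrane protein of the immunoglobulin family, was lower, with 30.6 in Z(+) and 45.5 in Z(-). Rhag, the Rh-associated glycoprotein, had 0.48 in Z(+) and 1.5 in Z(-), too near 0 for a fold. It counts as within 2-fold only with its value in Z(+) set to 1.

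Among 17 other measured genes of the red cell membrane and blood groups, 15 were within 2-fold, with a median of 0.04. Ank1, erythroid ankyrin, had 210 in Z(+) and 197 in Z(-), and Gypc, glycophorin C, had 183 in both. Xk, whose protein pairs with Kell in the membrane, was 2.87-fold lower, at 155 in Z(+) and 444 in Z(-). Kel itself was 1.11-fold lower. Aqp1, a water channel of red cells and also of endothelium, was 5.58-fold higher, at 102 in Z(+) and 18.4 in Z(-), but its arrays in Z(-) were 31.7 and 5.05, so the size of this fold rests on a dim value. Slc14a1, the urea transporter of red cells, had 72.1 in Z(+) and 123 in Z(-), and Icam4, an adhesion protein of erythroblasts, was 1.61-fold lower, with arrays of 31.0 and 31.0 in Z(+), against 50.5 and 49.5 in Z(-).

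**Figure D2:**
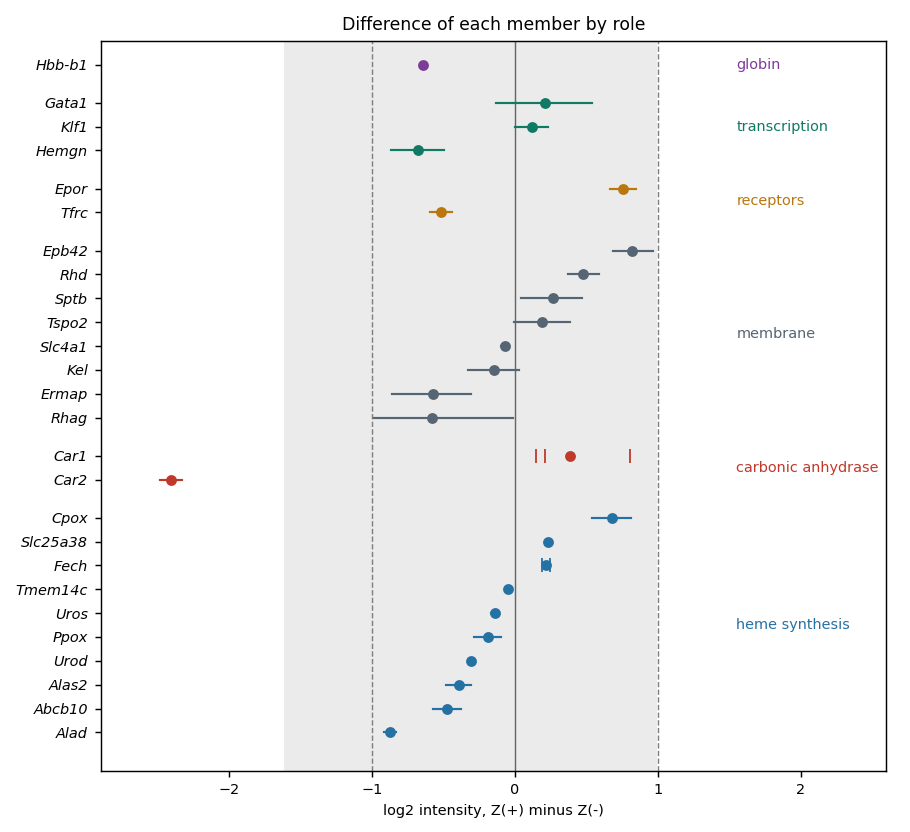
Log2 difference, Z(+) minus Z(-), of the 26 measured members, grouped by role. Lines give the lowest and highest difference over the technical arrays where they could be split, ticks the single probes of Car1 and Fech, the grey band the middle 95% of all genes (-1.61 to 0.99) and dashed lines 2-fold. Of the members, 25 lie within the band and Car2 lies outside it at -2.41.

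The carbonic anhydrases held the member with the largest difference, Car2. Both enzymes of this group turn carbon dioxide and water into bicarbonate, Car1 mainly in red cells and Car2 in red cells and many other cell types. Car2 measured 149 in Z(+) against 788 in Z(-), 5.30-fold lower in Z(+). Its arrays were 143 and 154 in Z(+), against 801 and 775 in Z(-). The log2 difference of -2.41 has 0.93% of all genes below it, and it ranged from -2.41 to -2.08 over the alternative settings. Car1 was dim with each of 3 probes. These had 4.04, 26.0 and 3.49 in Z(+) and 3.5, 23.5 and 2.0 in Z(-). Averaged over the 3 probes the log2 difference was 0.39, and a pseudocount of 50 brought it to 0.03.

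Transcripts of other blood cells that were lower in Z(+) are given beside Car2. For comparison, 6.27% of all genes had at least 2-fold less in Z(+) and 2.44% at least 2-fold more. Of 9 measured mast cell and basophil genes, 7 had at least 2-fold less and 0 at least 2-fold more, with a summed intensity of 4939 in Z(+) and 39940 in Z(-). None of the 9 was at 0. Of the defining genes, Mcpt8, a basophil protease, had 418 in Z(+) and 10154 in Z(-), and Cpa3, a mast cell protease, had 213 in Z(+) and 3109 in Z(-). Among 12 NK cell genes, 10 had at least 2-fold less, with a summed intensity of 4542 in Z(+) and 64959 in Z(-). Among 9 stem and progenitor genes, 3 had at least 2-fold less, with sums of 766 in Z(+) and 1256 in Z(-). All 11 macrophage genes were brighter in Z(+) as probe averages, at least 2-fold so for 7. Their sums were 71130 in Z(+) and 40008 in Z(-). Cd68 was only 1.04-fold higher. The probes of Axl disagreed, one with 2428 in Z(+) and 2639 in Z(-) and the other with 1265 in Z(+) and 457 in Z(-). Whether any of these cell types carried the Car2 transcript was not tested.

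Heme synthesis genes were measured in all 10 members, and all 10 lay within 2-fold and at or above the median intensity of all genes. Of the 7 enzymes, 5 had a lower intensity in Z(+) and 2 a higher one. In the order of the pathway, Alas2 measured 259 in Z(+) against 341 in Z(-), 1.31-fold lower in Z(+). Its arrays did not overlap, at 252 and 267 in Z(+), against 351 and 330 in Z(-). Alad, which joins molecules of aminolevulinic acid into porphobilinogen, had 102 in Z(+) and 186 in Z(-), 1.83-fold lower in Z(+). The arrays of Alad gave 99.7 and 103 in Z(+), against 188 and 184 in Z(-), and after Car2 this was the largest negative difference of the members, at -0.87.

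Uros, which closes the porphyrin ring, had 443 in Z(+) and 489 in Z(-), and Urod, which takes off its carboxyl groups, 3869 in Z(+) and 4792 in Z(-). Cpox, which makes protoporphyrinogen in the mitochondrion, was 1.60-fold higher in Z(+), at 257 against 161 in Z(-). The arrays of Cpox did not overlap, at 245 and 270 in Z(+), against 168 and 154 in Z(-). Ppox, the enzyme that follows, had 631 in Z(+) and 721 in Z(-). Fech, ferrochelatase, had 225 in Z(+) and 190 in Z(-) with one probe and 1770 in Z(+) and 1555 in Z(-) with the other, and these probes gave nearly the same log2 differences, 0.24 and 0.19. Thus Alad and Cpox differed by over 1.5-fold in opposite directions, and the 5 other enzymes by less.

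The 3 mitochondrial transporters of the pathway were within 1.5-fold. Slc25a38, which brings in the glycine for the first step, had 4319 in Z(+) and 3684 in Z(-). Abcb10, a mitochondrial transporter needed for hemoglobin formation, was 1.39-fold lower in Z(+), at 183 against 255 in Z(-), with arrays of 173 and 193 in Z(+), against 251 and 258 in Z(-). Tmem14c, which helps protoporphyrin reach ferrochelatase, had 1992 in Z(+) and 2060 in Z(-). Summed over the 10 heme members, the intensity was 12686 in Z(+) and 13232 in Z(-).

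Among 16 other measured genes of heme synthesis and handling, 15 were within 2-fold, with a median of -0.01. Alas1, the form of the first enzyme used outside the erythroid line, was 1.48-fold lower by its intensities of 2406 in Z(+) and 3569 in Z(-). Tspo, a mitochondrial membrane protein that binds porphyrins, had 4938 in Z(+) and 8883 in Z(-), and Bach1, a heme-sensing repressor, had 2397 in Z(+) and 1639 in Z(-). Slc25a37, mitoferrin, which brings iron into the mitochondrion, had 2303 in Z(+) and 1875 in Z(-). Hmox1, which degrades heme and is strong in red pulp macrophages, was at least 2-fold lower, with 4528 in Z(+) and 14348 in Z(-). The other 5 red pulp macrophage genes were brighter in Z(+). All 13 measured genes of iron uptake and regulation were within 2-fold, with a median of 0.15, and so were all 17 of late erythroid maturation, with a median of 0.12. Ftl1, the light chain of ferritin, which stores iron, had the largest difference of the first list at 0.76. This probe was dim, with 45.6 in Z(+) and 27.0 in Z(-). Alox15, a lipoxygenase of reticulocytes and also of macrophages, had the largest difference of the second list at 0.85. In the first list Glrx5, a mitochondrial protein of iron-sulfur cluster assembly, had 1740 in Z(+) and 2803 in Z(-), while Slc11a2, an iron transporter, had 328 in Z(+) and 214 in Z(-). Erfe, the hormone erythroferrone of erythroblasts, had 14.5 in Z(+) and 21.5 in Z(-). In the second list Trim58, a ubiquitin ligase of late erythroblasts, had 128 in Z(+) and 80.5 in Z(-), while Acp5, an acid phosphatase also of macrophages, had 451 in Z(+) and 706 in Z(-). Prdx2, an abundant antioxidant enzyme of red cells, had 2831 in Z(+) and 3881 in Z(-). Bnip3l, which clears mitochondria from the maturing red cell, had 6513 in Z(+) and 5394 in Z(-).

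**Figure D3:**
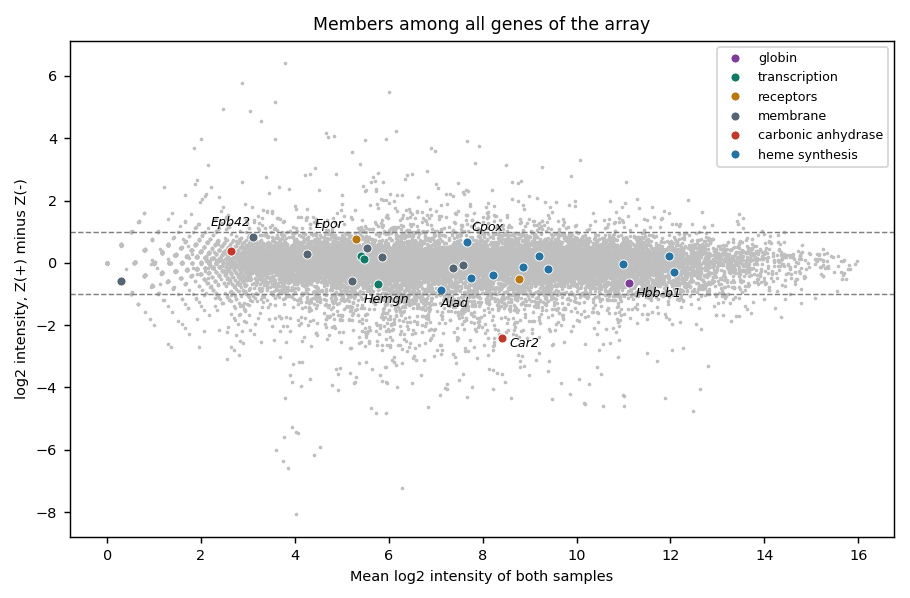
Log2 difference, Z(+) minus Z(-), against the mean log2 intensity for all 19084 genes (grey), with the 26 members coloured by role and dashed lines at 2-fold. Car2 lies below the lower line at -2.41, and the other members lie between the lines, from dim genes such as Epb42 to bright ones such as Hbb-b1.

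The sign of the mostly small differences was counted by brightness. Of the 15 at or above the median intensity of all genes, 12 had a lower intensity in Z(+) (80.0%), against 49.8% of all genes at that brightness, with a median of -0.19. Slc4a1 and Tmem14c among them changed sign with quantile normalization, which left 10. Of the 11 below it, 8 had a higher intensity in Z(+) (72.7%), against 58.0% of all genes at that brightness, with a median of 0.21. No test of these shares was possible. Summed intensities were 15320 in Z(+) and 17688 in Z(-) for the brighter members, and 375 in Z(+) and 352 in Z(-) for the dimmer ones. Among the brighter members 1 was at least 2-fold lower and 0 at least 2-fold higher, against 6.14% and 2.12% of all genes at or above the median. All 10 heme synthesis genes are among the brighter 15, whereas 6 of the 8 membrane genes and all 3 regulators are among the dimmer 11, so brightness and role cannot be told apart here.

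Of 14 other transcription factors of the erythroid line, 4 (28.6%) were at least 2-fold lower in Z(+), against 6.27% of all genes. Of the rest, 10 were within 2-fold and 0 were at least 2-fold higher, against 2.44% of all genes. The median of the 14 was -0.20, with 5 above 0. Gata2, which acts in stem cells, early erythroid precursors, mast cells and basophils, had 21.5 in Z(+) and 371 in Z(-) with one probe and 45.2 in Z(+) and 132 in Z(-) with the other. Myb, a factor of dividing precursors, had 85.3 in Z(+) and 360 in Z(-). Zfpm1, which encodes FOG1, the partner of GATA1, had 264 in Z(+) and 958 in Z(-), and Tal1, a partner in the same complexes, had 104 in Z(+) and 254 in Z(-). For each of these 4 genes the arrays of the fractions did not overlap, which held for 69.0% of all named probes that could be split. Gfi1b, a repressor that erythroid and megakaryocyte precursors need, was 1.57-fold higher, at 135 in Z(+) and 85.9 in Z(-), with arrays of 129 and 141 in Z(+), against 91.1 and 80.8 in Z(-). Lmo2 and Ldb1, which bind in a complex with TAL1 and GATA1, were higher in Z(+) by 1.23-fold for Lmo2 and 1.05-fold for Ldb1.

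Of 9 measured genes of erythropoietin and stem cell factor signalling, 1 was at least 2-fold higher and 1 at least 2-fold lower. The median of the 9 was 0.40. Over all genes, 2.44% were at least 2-fold higher and 6.27% at least 2-fold lower. Kit, the receptor of stem cell factor, which mast cells and early erythroid precursors carry, was 3.14-fold lower, at 268 in Z(+) and 842 in Z(-). Stat5a, which transmits signals of erythropoietin and of many cytokines, was 2.77-fold higher, at 429 in Z(+) and 155 in Z(-). Its arrays gave 418 and 441 in Z(+), against 152 and 158 in Z(-). Jak2, the kinase bound to the erythropoietin receptor, had 3614 in Z(+) and 2735 in Z(-). Bcl2l1, a survival gene of erythroblasts and other cells, had 226 in Z(+) and 139 in Z(-), and Pim1, a kinase induced by cytokines, had 16859 in Z(+) and 10997 in Z(-). The share of mast cells, basophils and progenitors in the lower Gata2, Myb, Zfpm1, Tal1 and Kit was not tested, and the summed levels of their genes, given beside Car2, were lower in Z(+) as well. Genes of megakaryocytes and platelets, the line closest to the erythroid one, had 8 of 10 within 2-fold as probe averages. The probes of Gp1bb, counted among these 8, disagreed. One had 31.1 in Z(+) and 126 in Z(-), and the other 21.6 in Z(+) and 8.97 in Z(-). The genes past 2-fold, Gp9 and Tubb1, went in opposite directions. Gp9 was 47.7-fold lower, at 1.97 in Z(+) and 94.0 in Z(-), so the size of this fold rests on a very dim value. Tubb1, very dim in both fractions, was 3.15-fold higher in Z(+). The sums of the 10 were 1521 in Z(+) and 1279 in Z(-), of which Vwf gave 943 in Z(+) and 778 in Z(-). Of 5 eosinophil genes 2 were at least 2-fold lower and 1 at least 2-fold higher. Prg2 was 20.6-fold and Siglecf 2.42-fold lower, while Ccr3 was 4.04-fold higher in Z(+). The sums of the 5 were 548 in Z(+) and 3719 in Z(-). Most of the gap between these sums came from Prg2, with 157 in Z(+) and 3226 in Z(-).

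**Figure D4:**
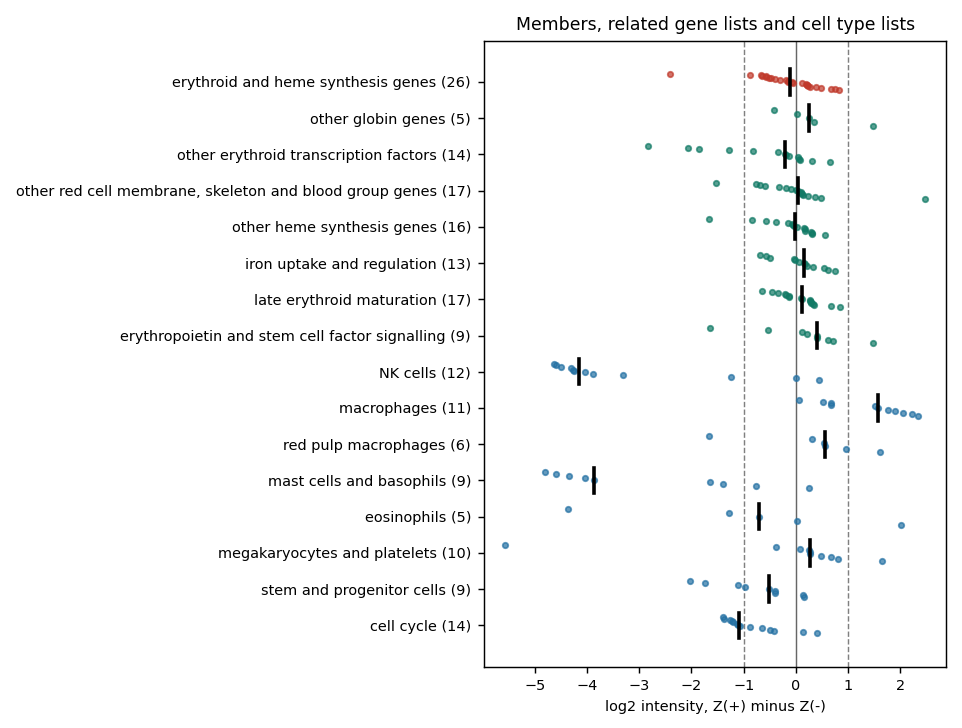
Log2 difference, Z(+) minus Z(-), of each gene (points) and the median (black bar) for the 26 members (red), related gene lists (green) and lists of other cell types (blue), with the number of genes in parentheses. The median of the members, -0.11, lies among those of the related lists, which run from -0.20 to 0.40, while mast cells and basophils at -3.87 and NK cells at -4.15 lie far below it and macrophages at 1.57 above it.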

How the data were processed

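Total RNA of Z(+) and Z(-) cells sorted from NOD-SCID spleen was amplified and read with Cy5 as the single colour of an oligonucleotide array. The authors deposited 1 linear intensity for each of 26423 probes and 2 samples, per the labels the mean of 2 technical arrays. The median intensity was 85.8 in Z(+) and 88.5 in Z(-), with 37 probes at or below 0 in each. Which scanner software, background correction and normalization were used is not given in the sources used here. The number of arrays limits the precision.

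Values under 1 were set to 1, log2 was taken and probes of a gene were averaged, with no further scaling. Symbols came from the platform annotation, with 1 symbol for 21876 probes and none for 4547, and all 26 members matched RefSeq (GRCm38.p6) by gene ID. Means below 1000 were split by searching for the pair of whole numbers, each times the factor of its array, that gives the deposited value; from 100 on, the one pair within 1.5-fold was taken. Both steps were tested on simulated data. The simulated arrays lay closer together than those of many dim probes in Z(+), so the split of widely differing arrays was not tested.

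The members and lists were chosen with earlier results of these data known. Named are all members, of each related list the genes that differed by 2-fold or were among the 4 with the largest difference, up to 3 genes of a cell type, and Alas1. Hbb-bh1, Ank1, Gypc, Gfi1b, Lmo2, Ldb1, Jak2, Slc25a37, Bnip3l, Gp1bb, Gp9, Tubb1, Vwf, Prg2, Siglecf and Ccr3 were named once their values had been seen. Alternatives were 3 scalings (centring, quantile, loess with a span of 0.3), the brightest probe, a pseudocount of 50, a floor of 20, sizes of 1.5-fold and 4-fold, and members at or above the median. Tools were Python 3.11.15 with numpy 2.4.6, pandas 2.3.3, statsmodels 0.14.6, matplotlib 3.10.9 and scipy 1.17.1.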

Additional observations from a re-analysis of the deposited data

How the results depend on the processing

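No paired analysis was possible because each group is 1 sample, and for the same reason no replicate could be left out. Under the 3 scalings, the brightest probe, the pseudocount of 50 and the floor of 20, 1 member, Car2, stayed at least 2-fold lower in Z(+) and 0 were at least 2-fold higher, and the median of all members ranged from -0.19 to -0.02 over all alternatives. With a size of 1.5-fold in place of 2-fold, 3 members were higher (Epor, Epb42 and Cpox) and 4 lower (Car2, Hbb-b1, Hemgn and Alad). That left 73.1% of the members within 1.5-fold, against 78.6% of all genes. Over members at or above the median intensity alone, the receptors came to -0.52 and the carbonic anhydrases to -2.41, since Tfrc and Car2 are then the one member left in each. The transcription factor group then had no member left and gave no value. Over the scalings and value floors, the differences of single members kept their sign except those of Slc4a1 and Tmem14c, which ranged from -0.09 to 0.01 and from -0.05 to 0.02, and of Rhag and Epb42, which became 0 with a floor of 20. With a pseudocount of 50, the medians of mast cells and basophils, NK cells and the cell cycle came to -2.46, -3.50 and -0.88. Over all genes that pseudocount left 205 at least 2-fold higher and 641 lower, against 466 and 1197 without it. Centring moved the median of all genes to 0.10. The arrays of Z(+) differed by over 2.21-fold for 5% of probes between 20 and 100, which bears on the dim members.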
